A study of Mus musculus with 3 samples.

Results

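Pluripotency factor genes of mouse embryonic stem (ES) cells were examined for binding of CTCFL, the testis-specific paralog of the chromatin organizer CTCF. The 10 genes were given by name and were Pou5f1, Nanog, Sox2, Tbx3, Esrrb, Zfp42, Prdm14, Tfcp2l1, Lin28a and Dppa3, out of 22359 protein-coding genes in the GENCODE annotation of mm9. The rule that names them uses no binding value, although they were proposed with earlier results of these data known. For each gene the CTCFL peaks were recorded whose midpoint lay from 2 kb upstream to 1 kb downstream of a transcription start (here called a promoter peak), in the gene body, or within 100 kb of a start. Within 100 kb of the 10 genes lay 19 of the 7436 peaks in the list. The list is longer than the set of CTCFL sites that the study itself counts, and how the list was called is not given in the sources used here, so each count and share below belongs to this list. Distances below are from a start of a protein-coding transcript of the gene to the peak midpoint, with a minus sign for peaks upstream.

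The cells were ROSA26-rtTA ES cells carrying a TRE-mCTCFL-V5-GFP-neomycin construct, in which doxycycline switches on CTCFL fused to a V5 tag and GFP. They were selected with G418, grown with LIF on gelatin, induced for 3 days, sorted for GFP and used for chromatin immunoprecipitation with a V5 antibody, followed by sequencing (ChIP-Seq). The same antibody in transgenic cells that received no doxycycline and were not sorted was the control, and CTCF was precipitated with its own antibody in a further library. ES cells do not normally make CTCFL, so the binding described is that of an introduced, tagged protein over the cells' own CTCF, and the number of clones behind the library is not given in the sources used here. There was 1 library per condition, and the list analysed holds the start and end of each peak in induced cells without a height, read number or p-value. The spread between replicates and the depth behind a peak are therefore unknown, no test was made, and counts are set beside those over all protein-coding genes. The ES cell label could not be checked from peak positions, and no expression was analysed here.

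Pluripotency is kept by transcription factors that bind each other's genes and their own. POU5F1 (OCT4), SOX2 and NANOG form the core of this network, while TBX3, ESRRB, TFCP2L1 and PRDM14 hold ES cells in the naive state that is fed by LIF. Zfp42 (REX1) and Dppa3 (Stella) are widely used markers of that state, and LIN28A is an RNA-binding protein that blocks maturation of the let-7 microRNAs. CTCF binds a long GC-rich motif through its zinc fingers and helps to fold chromosomes into loops. CTCFL has a closely similar set of zinc fingers.

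A CTCFL peak lay in the promoter of 2 of the 10 genes, Tbx3 and Tfcp2l1, while 11.2% of all protein-coding genes had a promoter peak (95% Wilson interval 10.8 to 11.7%, counting error only). A peak lay in the body of 3 genes, Tbx3, Esrrb and Tfcp2l1, beside 15% of all genes. Gene body counts, here and over all genes, include promoter peaks whose midpoint lies inside the gene. The gene body peak of Tbx3 was its promoter peak. All 10 genes had a peak within 100 kb of a start, beside 60.3% of all genes. The other 7 genes, among them Pou5f1, Nanog and Sox2, had neither a promoter nor a gene body peak. The counts over 10 genes are small, and the promoter and gene body counts differ from those shares by 1 or 2 genes.

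The promoters of Tbx3 and Tfcp2l1 are shown here as the 200 bases before the outermost start on mm9, plus strand, since they are the promoters of the 10 genes with a peak at the start itself. CpG dinucleotides are in capitals.
Tbx3 chr5:120120478-120120677: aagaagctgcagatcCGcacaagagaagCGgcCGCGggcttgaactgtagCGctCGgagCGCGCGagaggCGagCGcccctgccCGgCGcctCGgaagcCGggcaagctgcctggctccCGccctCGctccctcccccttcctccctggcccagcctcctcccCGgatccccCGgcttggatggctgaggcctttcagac
Tfcp2l1 chr1:120524322-120524521: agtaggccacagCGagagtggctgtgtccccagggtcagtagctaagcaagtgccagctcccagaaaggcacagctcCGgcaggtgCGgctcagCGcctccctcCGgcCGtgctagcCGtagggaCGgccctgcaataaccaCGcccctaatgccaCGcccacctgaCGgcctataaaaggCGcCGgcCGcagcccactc
The Tbx3 stretch holds 19 CpG dinucleotides at a GC content of 71%, and the Tfcp2l1 stretch holds 14 at 66%.

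Tbx3 encodes a T-box repressor that acts downstream of LIF and is also needed in limb and heart development. The gene (ENSMUSG00000018604.11) lies on chr5:120120678-120134733, plus strand. Its promoter peak spanned chr5:120120310-120121051 and its midpoint was 2 bp from a start, in an exon outside the coding sequence. Of all protein-coding genes, 0.152% had a peak as close or closer. At 742 bp it was also the widest of the 19 peaks and ranked 472 in width among all 7436. A 250-bp peak at chr5:120162932-120163181 lay 32296 bp downstream of the nearest start, between genes, at width rank 7092. Tbx3 therefore had both the widest peak and one of the narrower peaks of the group.

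Tfcp2l1 encodes a CP2 family transcription factor that acts downstream of LIF and STAT3 and is named Tcfcp2l1 in the annotation. The gene (ENSMUSG00000026380.9) lies on chr1:120524522-120581744, plus strand. A 696-bp peak at chr1:120524104-120524799 had its midpoint 71 bp upstream of the start, and 2.44% of all genes had a peak as close or closer. It was the second widest peak of the group, at rank 679. A second peak of 262 bp lay in an intron at chr1:120539270-120539531, 14878 bp downstream of the start. Both members with a promoter peak thus also had a narrower peak further downstream, in 1 case inside the gene and in the other beyond it.

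Esrrb encodes an orphan nuclear receptor. It is the longest of the 10 genes at 160512 bp (ENSMUSG00000021255.10, chr12:87702067-87862578, plus strand) and has 4 start sites. Both of its peaks were intronic. A 367-bp peak at chr12:87774289-87774655 lay 11639 bp downstream of a start, and a 461-bp peak at chr12:87743562-87744022 lay at -18802 bp from an internal start, which places it inside the gene. Gene body peaks were more frequent in long genes, and of the 2400 protein-coding genes of 100 kb or longer 34.1% had such a peak.

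**Figure D1:**
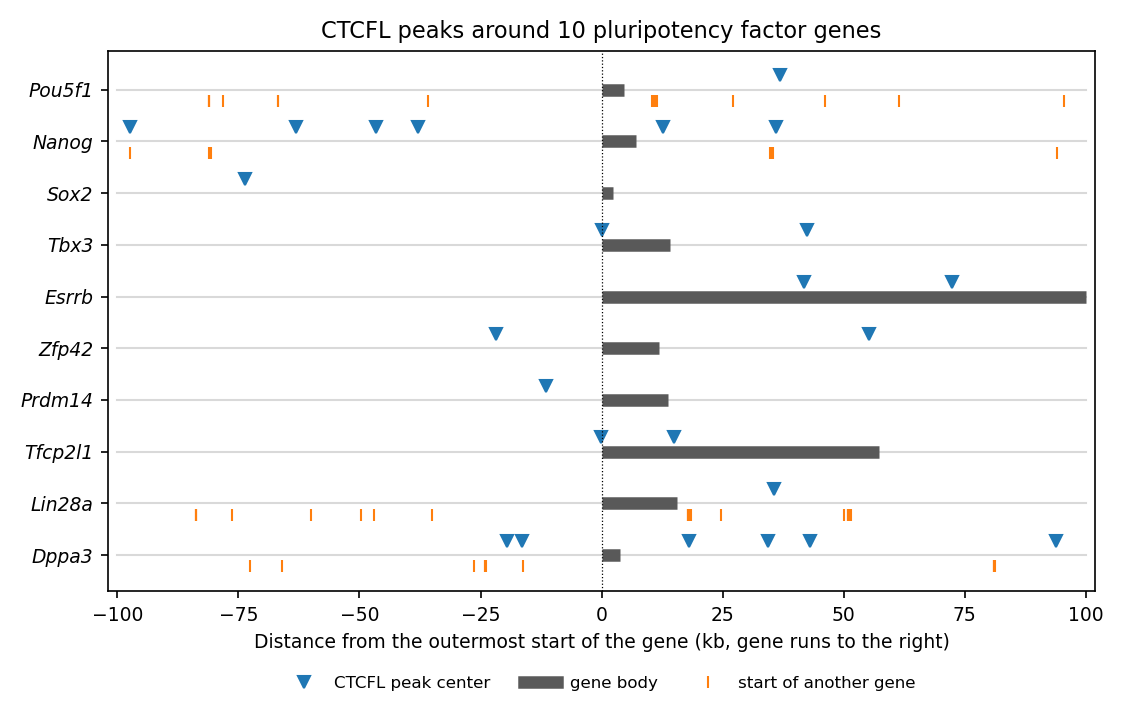
Midpoints of CTCFL peaks (blue triangles) within 100 kb of 10 pluripotency factor genes, drawn by distance in kb from the outermost start with each gene running to the right (grey bars, gene bodies; orange ticks, starts of other protein-coding genes). Only Tbx3 and Tfcp2l1 had a peak at the start, and Nanog and Dppa3 had 6 peaks each. Sox2, Tbx3, Esrrb, Zfp42, Prdm14 and Tfcp2l1 had no start of another protein-coding gene in the window.

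Nanog, which encodes a homeodomain factor of the core network, and Dppa3, whose protein shields the maternal genome from loss of methylation after fertilization, are neighbours on chromosome 6 with outermost starts 81079 bp apart. Each had 6 peaks within 100 kb, and 5 of these were the same peaks, so their counts are not independent. Of all protein-coding genes, 2.64% had 6 or more peaks within that distance. The 7 peaks of the locus spanned 137003 bp, from chr6:122556777 to chr6:122693779, over Gdf3, Dppa3 and Nanog and into Slc2a3. None lay in the promoter or body of Nanog (ENSMUSG00000012396.5, chr6:122657507-122664651, plus strand) or of Dppa3 (ENSMUSG00000046323.2, chr6:122576428-122580290, plus strand).

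The peak nearest to Nanog, at chr6:122670054-122670474, was 421 bp wide and lay 12653 bp downstream of a start, past the end of the gene. Between Dppa3 and Nanog lay 3 peaks. They were at chr6:122594316-122594539 (224 bp), chr6:122610631-122611053 (423 bp) and chr6:122619271-122619725 (455 bp), at -63080, -46665 and -38009 bp from Nanog and 17656, 34071 and 42727 bp from Dppa3. The peak nearest to Dppa3 was 449 bp wide, at -16340 bp, and its midpoint was 17 bp inside Gdf3, which encodes a TGF-beta family ligand. A 217-bp peak at -19543 bp from Dppa3 lay in a coding exon of Gdf3. The 534-bp peak at 35901 bp from Nanog was at -574 bp from a start of Slc2a3, a glucose transporter gene. The locus thus held promoter peaks at Gdf3 and Slc2a3 and none at the 2 pluripotency genes between them.

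Pou5f1, Sox2, Prdm14 and Lin28a had 1 peak each, none inside the gene. Pou5f1 (ENSMUSG00000024406.9, chr17:35642982-35647721, plus strand), the POU factor gene, had a 494-bp peak at chr17:35679681-35680174, 33597 bp downstream of a start and nearer to Cdsn, at -9146 bp. Sox2 (ENSMUSG00000074637.3, chr3:34548927-34551383, plus strand), whose HMG-box protein binds DNA beside POU5F1, had a 505-bp peak at -73552 bp, the farthest nearest peak of the 10 genes. Prdm14 (ENSMUSG00000042414.7, chr1:13103538-13117244, minus strand), a PR domain regulator also needed by germ cell precursors, had a 314-bp peak between genes at -11390 bp. The 293-bp peak of Lin28a (ENSMUSG00000050966.2, chr4:133559245-133574756, minus strand) was at 35659 bp, in an intron of Dhdds.

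Zfp42, which encodes a zinc finger protein, lies on chr8:44380422-44392363, minus strand (ENSMUSG00000051176.5), and had 2 peaks between genes. The nearer, 363 bp wide at chr8:44414016-44414378, was at -21834 bp. The farther, 247 bp wide at chr8:44337044-44337290, was 55196 bp downstream and 51991 bp from Gm2221.

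By genomic class, 4 of the 19 peaks lay in a promoter, or 21.1%, beside 31.5% of all peaks. Of the rest, 1 lay in an exon, 4 in an intron and 10 between protein-coding genes. For 13 peaks the nearest start was that of one of the 10 genes, and for 6 it was that of another gene. Shares over all peaks were not computed for the classes other than promoters, and the nearest start counts have no background. A peak lay within 20 kb of a start for 6 of the 10 genes, while 29.5% of all genes had one within 20247 bp. Within 50 kb it was 9 of the 10 genes, beside 46.1% of all genes. The median distance to the nearest peak was 14496.5 bp for the 10 genes and 60908 bp for all genes (quartiles 14975.5 and 210737 bp). Of the 10 genes 9 were closer than the median gene. Measured from the outermost start alone, the median of the 10 genes was 19087 bp, and that of all genes was not computed. The median number of peaks within 100 kb was 2 for the 10 genes and 1 for all genes (quartiles 0 and 2).

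**Figure D2:**
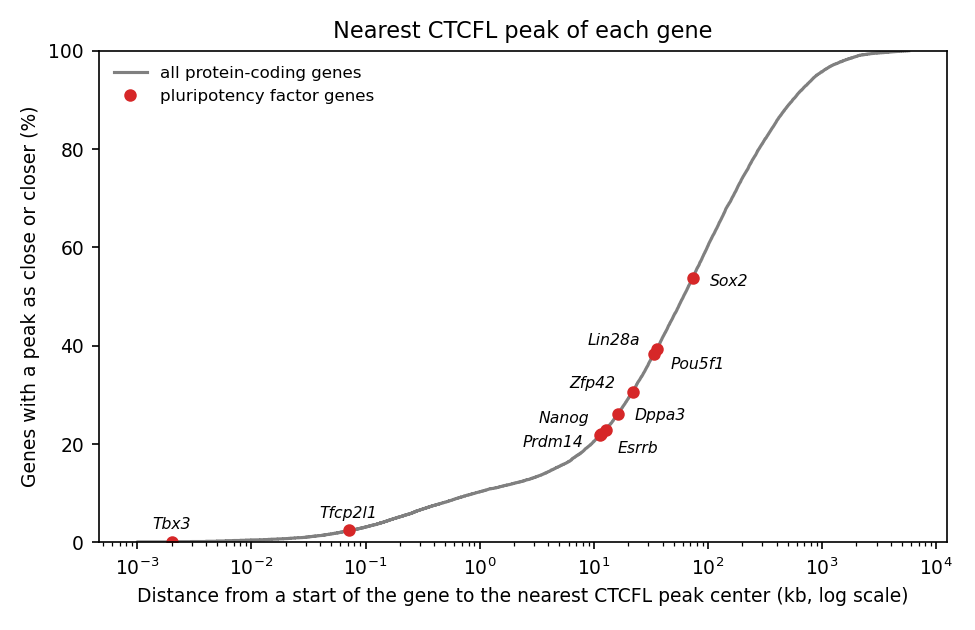
Cumulative share of all 22359 protein-coding genes (grey line, %) by the distance from a start to the nearest CTCFL peak midpoint (kb, log scale), with the 10 pluripotency factor genes as red points. Tbx3 and Tfcp2l1 sit at the left end, 7 genes lie between 11390 and 35659 bp, and Sox2 lies at 73552 bp.

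The number of peaks near a gene was higher where more gene starts lay near it. Only starts of protein-coding genes were counted, and those of non-coding genes were not. Across all genes the Spearman rho between peaks and other gene starts within 100 kb was 0.41 (a description over genes, which share windows and are not independent). The share of genes with a peak was 34.4% where no other start lay within 100 kb and 83.9% where there were 11 to 32. The 10 genes lay on the sparse side, with a median of 0 other starts beside 3 for all genes (quartiles 2 and 6). Sox2, Tbx3, Esrrb, Zfp42, Prdm14 and Tfcp2l1 had no other protein-coding start within 100 kb and all 6 had a peak. The median distance to the nearest peak over the 2526 such genes of the genome was 194425 bp. Pou5f1, with 9 other starts, and Lin28a, with 6, had 1 peak each.

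A motif was learned from the 7406 peaks away from the 10 genes, starting from the 8-base word most enriched over flanking sequence, AGGGGGCG. It has 15 positions and the consensus CCANCAGGGGGCGCN, or NGCGCCCCCTGNTGG on the opposite strand, where N marks a position with no base in at least 50% of sites. A match is a window on either strand with a log2 odds score of at least 17.45, the score reached by 1% of flanking windows of the same width 2 kb away. Of all peaks 33.3% held a match (95% Wilson interval 32.2 to 34.3%), and of the 19 peaks 4 did, or 21.1%. Nearly all peaks of the list served to learn the motif, while the 19 did not, so the values over all peaks are not independent of it. The median best score was 14.91 in the 19 peaks (range 5.22 to 20.36), 14.96 in all peaks (quartiles 9.56 and 18.65) and 4.44 in flanking windows. The motif scores of peaks near these genes thus lay in the range of those of all peaks.

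The 4 matches and the best site just below the threshold are shown with 20 bases to each side, with the 15 motif positions in capitals. Each is read 5′ to 3′ on the strand of the site, with mm9 coordinates.
Esrrb intron, chr12:87743854-87743908, minus strand: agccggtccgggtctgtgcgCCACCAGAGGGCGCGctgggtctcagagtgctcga
Zfp42 distal peak, chr8:44337174-44337228, plus strand: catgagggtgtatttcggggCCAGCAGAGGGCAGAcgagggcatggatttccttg
Tbx3 distal peak, chr5:120163050-120163104, minus strand: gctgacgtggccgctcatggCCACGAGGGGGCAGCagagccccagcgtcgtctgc
Downstream of Nanog, chr6:122670155-122670209, minus strand: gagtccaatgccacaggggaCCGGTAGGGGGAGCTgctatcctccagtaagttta
Between Dppa3 and Nanog, chr6:122619542-122619596, plus strand, below the threshold: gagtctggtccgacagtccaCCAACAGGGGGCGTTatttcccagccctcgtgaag
The scores were 20.36 in the Esrrb intron, 18.34 in the distal Zfp42 peak, 18.19 in the distal Tbx3 peak, 17.54 in the peak downstream of Nanog and 16.99 in the peak between Dppa3 and Nanog. All 4 matches lay within 100 bp of the peak midpoint. The distal Zfp42 and Tbx3 peaks were only 247 and 250 bp wide, which leaves little room beyond that distance. All 4 matches were on the strand opposite to the gene they are named for. Neither count was computed over all peaks, and 4 sites are too few to show a pattern. A match is a description of the letters and not a measured contact.

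The peaks at the Tbx3 and Tfcp2l1 starts held no match, and their best scores were 10.87 and 11.58. The promoter peaks of Gdf3 and Slc2a3 scored 7.91 and 13.71. The 15 peaks outside promoters had a median width of 363 bp and a median score of 15.95, and 4 of them held a match. With 4 promoter peaks and 15 others these counts are small. Over the whole list, 25.9% of the 2344 promoter peaks (median 515 bp wide) and 36.6% of the 5092 other peaks (median 425 bp) held a match. At the score reached by 5% of flanking windows it was 54.7% and 59.9%. The lowest score of the 19 peaks, 5.22, was that of the Tfcp2l1 intron peak, and the peaks of Pou5f1 and Sox2 scored 6.88 and 7.09.

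**Figure D3:**
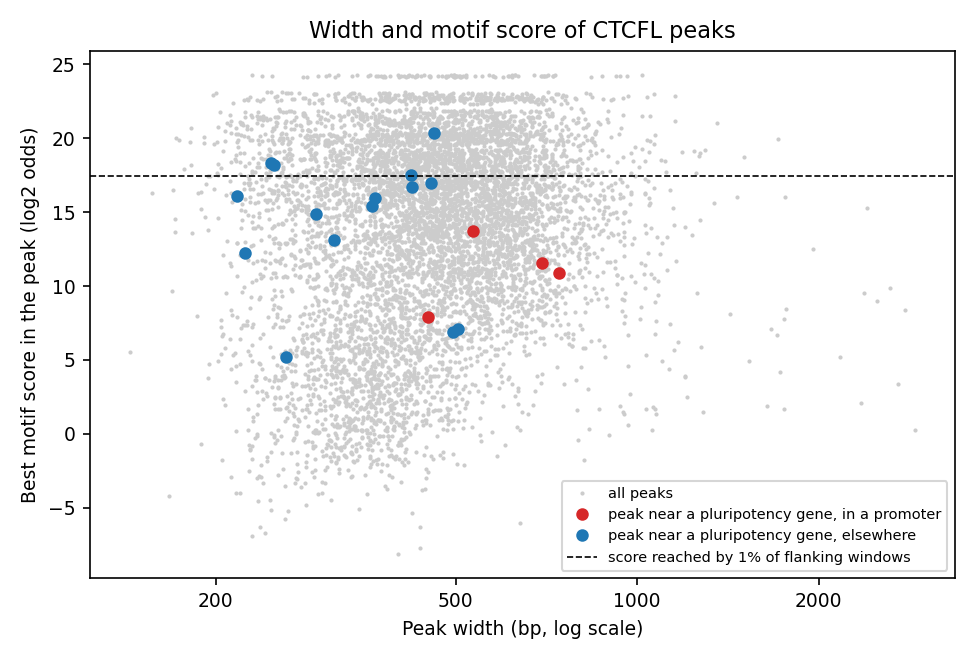
Peak width (bp, log scale) against the best motif score in the peak (log2 odds) for all 7436 CTCFL peaks (grey) and the 19 peaks near pluripotency factor genes, split into promoter and other peaks; the dashed line is the score of 17.45 reached by 1% of flanking windows. The 4 promoter peaks lie at 449 to 742 bp and below the line, and the 4 peaks above the line lie outside promoters.

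Most motif matches of the genome held no peak. Of 24470 matches 2561 lay in a peak, or 10.5% (95% Wilson interval 10.1 to 10.9%). Within 100 kb of the 10 genes there were 80 matches, of which 4 lay in a peak. Pou5f1 had the most, 17, and none of them was in its peak, while Tfcp2l1 had 0 matches in its window and 2 peaks. No gene of the 10 had a match from 2 kb upstream to 1 kb downstream of its outermost start, beside 6.32% of all genes. Of all genes with such a match 45.0% had a promoter peak and of those without it 8.95% did. Of all genes with a promoter peak 74.6% lacked a promoter match, as Tbx3 and Tfcp2l1 did.

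Promoter peaks were less frequent in genes with few CpG dinucleotides at the start. CpG content was measured as the observed over expected number of CpG dinucleotides in the 500 bp around the outermost start, and all genes were split into 3 classes of equal size. A promoter peak was present in 2.76% of genes of the low class (Wilson interval 2.42 to 3.16%), 13.4% of the middle class (12.7 to 14.2%) and 17.5% of the high class (16.7 to 18.4%). Of the 10 genes Nanog (0.226) and Esrrb (0.312) fell in the low class, and neither had a promoter peak. Tbx3 (0.869) and Sox2 (0.786) were in the high class, of which Tbx3 had a promoter peak and Sox2 had none. In the middle class Tfcp2l1 (0.661), the highest of its 6 members, had a promoter peak. The remaining middle class members, Zfp42 (0.478), Prdm14 (0.469), Dppa3 (0.458), Lin28a (0.428) and Pou5f1 (0.354), had none. Both promoters with a peak thus ranked among the 3 most CpG-rich of the 10, and the third, that of Sox2, had no peak, as most promoters of the high class did not.

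**Figure D4:**
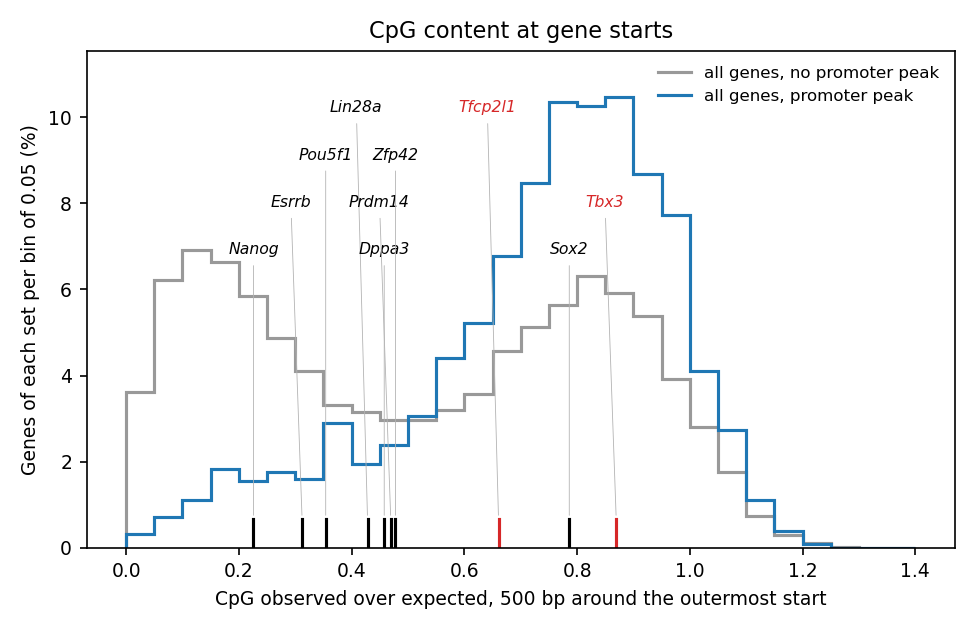
CpG observed over expected in the 500 bp around the outermost start for all protein-coding genes with and without a promoter peak (lines, % of genes of each set per bin), with the values of the 10 pluripotency factor genes marked. Tbx3 at 0.869 and Tfcp2l1 at 0.661 had a promoter peak, and the other 8 genes, from 0.226 in Nanog to 0.786 in Sox2, had none.

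The share of a region in which a 36-base read has a single position in the genome limits where a peak can be seen. It was 87.3% in the promoter of Zfp42 and 95.8 to 100% in those of the other 9 genes. Over the 100 kb to either side it was 66.2% for Pou5f1, which lies among the repeated class I genes of the major histocompatibility complex, and 84.9 to 95.8% for the others. Of the 19 peaks 16 were unique in every window, and 1 was below 90%, the 224-bp peak at 17656 bp from Dppa3 with 69.3%. The part of this lower share in the single peak near Pou5f1 was not tested.

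The wider network was described with 46 further genes of ES cell signalling and identity in 6 role groups. A promoter peak was present in 9 of them, or 19.6%, a gene body peak in 13, or 28.3%, and a peak within 100 kb in 34, or 73.9%, beside the 11.2%, 15% and 60.3% of all genes given above. Among other transcription factors 3 of 11 had a promoter peak, Sall4 at 53 bp from an internal start, Klf5 at 395 bp and Mycn at -701 bp. Among markers and targets 3 of 12 did, Gdf3 at 17 bp, Alpl at -31 bp and Lefty1 at -326 bp. In the LIF and STAT3 group it was 1 of 6, the feedback inhibitor gene Socs3 at 267 bp. In the WNT group it was 1 of 5, the repressor gene Tcf7l1 at -434 bp. Of 5 genes of the primed state Lin28b, the paralog of Lin28a, had a promoter peak at -21 bp, and of 7 BMP and SMAD genes none did.

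Klf5, a zinc finger factor gene of the naive state, held a peak of 2498 bp, the fifth widest of all 7436 and wider than each of the 19 peaks near the 10 genes. The Alpl peak, at the gene of the alkaline phosphatase used to stain ES cells, scored 22.84 and that of Tcf7l1 scored 18.50. Both held a motif match. The other promoter peaks of the wider network, at Gdf3, Lin28b, Sall4, Socs3, Lefty1, Klf5 and Mycn, held none. The peaks at the starts of Tbx3 and Tfcp2l1 held none either, and of all promoter peaks 25.9% held a match. Lin28b and Lin28a differed in position, with a 627-bp peak at an internal start of Lin28b and the single peak near Lin28a at 35659 bp. The CpG value at the outermost start was 1.10 for Lin28b and 0.428 for Lin28a. The Lin28b peak lay outside the 500 bp in which that value was measured.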

How the data were processed

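CTCFL ChIP-Seq of induced ES cells was analysed from the list of peaks deposited by the authors, which gives start and end positions in bp on mm9 (unit: other) and no score. In the study's methods, 36-bp reads were mapped with ELAND to the mouse genome. BOWTIE alignment to mm9 and MACS peaks at an fdr below 0.05 are described for published data sets, and the caller and threshold behind the list are not given in the sources used here. The libraries of non-induced cells and of CTCF were not analysed here.

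Peaks were placed by midpoint against protein-coding genes of GENCODE vM1 on NCBIM37, the assembly of mm9. Of the 10 symbols 9 matched directly and Tfcp2l1 through its older name in RefSeq. The motif matrix and the uniqueness of 36-base windows were computed from the NCBIM37 sequence. Scripts ran in Python 3.11.15 with numpy 2.4.6, scipy 1.17.1, pandas 2.3.3, numba 0.67.0 and matplotlib 3.10.9 and were tested on simulated data. The members and lists were chosen with earlier results of these data known. Named were the 10 genes, list genes with a promoter peak and the gene nearest to each peak. Wilson intervals cover counting error only. Alternatives were the promoter interval, start sites, distance, peak width, merging within 1 kb, uniqueness and motif threshold.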

Additional observations from a re-analysis of the deposited data

How the results depend on the processing

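Of 55 alternative values for 9 counts, shares and distances, 50 stayed within 1.5 times the reported value and 5 did not. The promoter count of 2 genes was the same under each promoter interval, start site definition, overlap, merging, width and uniqueness choice tried. Using peaks at or above the median width left 7 distinct peaks in place of 19, raised the median distance from 14496.5 to 39314 bp and left 7 of 10 genes with a peak within 100 kb, beside 43.7% of all genes. A distance of 200 kb gave 30 distinct peaks. Motif matches numbered 11 of 19 peaks at the score reached by 5% of flanking windows, beside 58.3% of all peaks, and 0 at the score reached by 0.1%, beside 8.82%. By construction these settings keep fewer peaks, search more sequence or move the threshold.

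No paired analysis was possible because there was a single library of every kind. For the same reason leaving out a library was not run. The list has no peak scores, so peak width stood in for a stricter calling threshold. The control and CTCF libraries were not analysed here, and sites shared with CTCF cannot be told apart from sites of CTCFL alone.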

Other observations

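Several genes of the wider network had a close peak outside the promoter interval. Klf4, a zinc finger factor used in reprogramming, had its nearest peak 1359 bp downstream of a start, in the gene body. Bmp4, which encodes a ligand used to keep ES cells undifferentiated, had a gene body peak at 2575 bp, and Lif and its receptor gene Lifr had gene body peaks at 3640 and 3449 bp. A gene body peak was present in 4 of 6 genes of the LIF and STAT3 group, in 4 of 11 other transcription factor genes, 2 of 5 WNT genes, 1 of 7 BMP and SMAD genes, 1 of 12 markers and targets and 1 of 5 primed state genes, beside 15% of all genes. These counts include promoter peaks that lie inside the gene, as at Socs3, Sall4, Klf5, Gdf3 and Lin28b. Gdf3 also had a peak in a coding exon. By contrast, Dppa2 and Dppa4, neighbouring marker genes on chromosome 16, had their nearest peak at 460069 and 486778 bp, and Nr0b1 on chromosome X at 911390 bp. With a promoter interval of 5 kb to either side 13 of the 46 genes had a promoter peak, beside 15.5% of all genes. These genes outside the promoter interval were chosen after their values were seen.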
